A study of Mus musculus with 30 samples.

Results

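The genes described here are the nuclear genes of complexes III, IV and V of the respiratory chain in the mouse heart. They were taken by name and by no measured value: protein-coding genes whose symbol starts with Uqc, Atp5 or Cox followed by a digit, without 9 cytochrome c oxidase genes that have tissue forms (Cox4i1, Cox4i2, Cox6a1, Cox6a2, Cox7a1, Cox7a2, Cox7a2l, Cox8a and Cox8b). This gave 46 of the 48820 genes in the deposited table, 11 of complex III, 18 of complex IV and 17 of complex V. Of these, 44 passed the filter on low counts and were tested. The other 2, Cox7b2 with 9 counts over all libraries and Cox8c with 0, are forms known from testis. The RNA came from hearts of mice labelled WT and untreated, and was selected for poly(A) before sequencing. There were 10 ages with 3 libraries each, 30 in all: embryonic days 10.5, 12.5, 14.5, 16.5 and 18.5 (E10.5 to E18.5), postnatal day 1 (P1) and postnatal weeks 1, 2, 4 and 8 (1W to 8W). The labels do not give strain, sex or the part of the heart. Whether the 3 libraries of 1 age stand for separate animals or for pools is not in the labels either, so the p-values reflect the spread among samples, which may be technical. In bulk tissue, fewer cells of a type and less RNA per cell cannot be told apart.

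Complex III passes electrons from ubiquinol to cytochrome c, and complex IV, cytochrome c oxidase, passes them on to oxygen. Both move protons out of the mitochondrial matrix, and complex V, the ATP synthase, lets the protons flow back through a rotating ring of subunit c to make ATP. Each complex joins a few subunits encoded in mitochondrial DNA to many encoded in the nucleus, and needs assembly factors that insert heme, copper and the mitochondrially made subunits. Heart muscle is among the tissues richest in mitochondria, and the heart turns from glycolysis to fatty acid oxidation around birth.

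Levels are in CPM, the usual scale on which a gene's count is set against the size of its library, after scaling with edgeR's TMM factors, and changes are in log2 units with their SE, the later age over the earlier. The verbs rose and fell are kept for genes whose quasi-likelihood test (edgeR) had an adjusted p under 0.05, by Benjamini-Hochberg over the 19280 genes tested. Library totals ranged from 23164934 to 50519452 counts, and the 46 genes held between 0.946% and 1.78% of them. Mitochondrially encoded RNA took from 2.73% to 19.2% of the counts, and its share was 18.9% or more in all 3 libraries of 8W. TMM factors fell from 1.337 in an E10.5 library to 0.603 in an 8W library, so the counts of genes called are also given with scaling by library size alone. Replicate 2 of E10.5 stood apart: the chi-square of its counts against the other E10.5 libraries was 172 and 201 per degree of freedom, against 16 between those 2 and at most 57.8 between any other pair of replicates. Cardiomyocyte markers were present in every library, with a summed level of 23175 CPM or more over 9 genes, while 5 liver markers summed to at most 44.84 CPM. Erythroid markers were also present in every library, with sums of 574.4 to 15209 CPM over 7 genes. Values were not whole numbers in most libraries for 9 of the 46 genes, among them Uqcrc1 (18 libraries), Cox16 and Cox20 (29 each) and Atp5g2 (30), and how reads that match several genes were counted is not given in the sources used here.

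The alpha and beta subunits of the catalytic head of the ATP synthase stood highest. Per kilobase of transcript, the mean over all libraries was 2002 CPM per kb for Atp5b (ENSMUSG00000025393, chr10:128083273-128090391, + strand, GRCm38), the beta subunit that holds the catalytic sites. It was 1396 for Atp5a1, the alpha subunit beside it, and 1132 for Atp5h, subunit d of the peripheral stalk. In complex IV, Cox6b1 (ENSMUSG00000036751, chr7:30616861-30626151, - strand), a subunit on the intermembrane-space side, was highest with 740 CPM per kb. In complex III it was Uqcrh (ENSMUSG00000063882, chr4:116066965-116075071, - strand), the hinge protein that docks cytochrome c1, with 488 CPM per kb. These 3 genes led their complexes with the shortest or with the longest principal transcript as the length. Assembly factors stood far lower per length, from 3.609 CPM per kb for Cox18, which inserts subunit 2 into the membrane, to 61.85 for Cox17, a copper chaperone, whose value was 7.442 with its longest principal transcript.

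Promoters are shown for 4 genes that the results turn on and whose promoter holds a motif of a factor known for respiratory genes. The table of RefSeq promoters (build GRCm38.p6, 250 bases before to 50 after the start) matched 35 of the 46 genes, with 39 promoters in all. NRF1 (GCGCA directly followed by TGCGC), ETS factors such as GABP (CCGGAAG), ERR (TCAAGGTCA) and YY1 (AAGATGGC) were searched on both strands. The end of the ETS letters can overlap the start of the YY1 letters, which it does in none of the 4 promoters shown. The capitals mark the matches, as read on the gene's strand, so an ETS match on the other strand appears as CTTCCGG. Uqcrc1 is a core protein of complex III (chr9:108936398-108936697, + strand), Atp5k is subunit e of the ATP synthase (chr5:108434350-108434649, - strand), Cox10 makes the heme O from which heme A is formed (chr11:64079423-64079722, - strand), and Cox20 is a chaperone of subunit 2 of complex IV (chr1:178318903-178319202, + strand).
Uqcrc1 promoter: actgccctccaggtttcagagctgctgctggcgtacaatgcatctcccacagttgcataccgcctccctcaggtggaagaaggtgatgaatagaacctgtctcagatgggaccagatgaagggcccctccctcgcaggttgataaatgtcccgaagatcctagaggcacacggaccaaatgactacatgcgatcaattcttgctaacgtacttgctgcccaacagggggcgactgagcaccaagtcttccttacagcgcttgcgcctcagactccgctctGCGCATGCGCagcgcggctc
Atp5k promoter: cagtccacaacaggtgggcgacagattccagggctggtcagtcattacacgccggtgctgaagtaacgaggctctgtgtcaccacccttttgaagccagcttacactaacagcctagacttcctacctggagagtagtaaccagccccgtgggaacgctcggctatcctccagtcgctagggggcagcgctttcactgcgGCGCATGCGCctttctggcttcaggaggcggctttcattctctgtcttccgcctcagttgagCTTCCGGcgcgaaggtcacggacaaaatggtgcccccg
Cox10 promoter: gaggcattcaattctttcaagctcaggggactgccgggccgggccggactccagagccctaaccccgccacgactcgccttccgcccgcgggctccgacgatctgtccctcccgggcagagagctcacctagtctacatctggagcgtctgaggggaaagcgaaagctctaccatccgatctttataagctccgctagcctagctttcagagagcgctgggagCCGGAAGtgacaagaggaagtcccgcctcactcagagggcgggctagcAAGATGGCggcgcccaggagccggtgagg
Cox20 promoter: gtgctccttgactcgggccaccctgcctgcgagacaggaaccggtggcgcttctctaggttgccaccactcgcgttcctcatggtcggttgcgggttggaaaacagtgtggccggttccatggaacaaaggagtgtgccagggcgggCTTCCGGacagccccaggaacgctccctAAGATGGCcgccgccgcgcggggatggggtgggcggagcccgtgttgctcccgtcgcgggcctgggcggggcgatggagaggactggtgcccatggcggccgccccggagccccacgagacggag

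The Uqcrc1 promoter holds the NRF1 letters after the start, and the Atp5k promoter holds them before the start with an ETS match after it. Cox10 and Cox20 each hold an ETS match followed by the YY1 letters. Over the 39 promoters, the ETS letters were in 14 (35.9%), against 8.86% of all 32851 promoters of the table. The NRF1 letters were in 3 (7.69%, against 0.971%), the YY1 letters in 5 (12.8%, against 2.75%) and the ERR letters in 1 (2.56%, against 0.423%), that of Atp5g3. A match describes the letters in these windows and is not a site shown to be bound.

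Nearly every gene changed with age, as did most of the transcriptome. Across the 10 ages, 43 of the 44 genes tested passed the edgeR test, where 93.6% of all genes did. The exception was Cox18 (adjusted p = 0.11), which passed when replicate 2 of E10.5 was left out. The highest mean was at 8W for 37 genes, at E10.5 for 3 (Cox16, Cox18 and Atp5mpl), at E12.5 for Cox6b2, at E16.5 for Atp5g2, at E18.5 for Cox20 and at 4W for Atp5d. The lowest mean was at E14.5 for 22 genes and at E10.5 for 9. With library size alone, the highest mean was at 8W for 14 genes, at E16.5 for 13 and at E10.5 for 12, so the peak at 8W depends on the scaling for many of them.

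**Figure D1:**
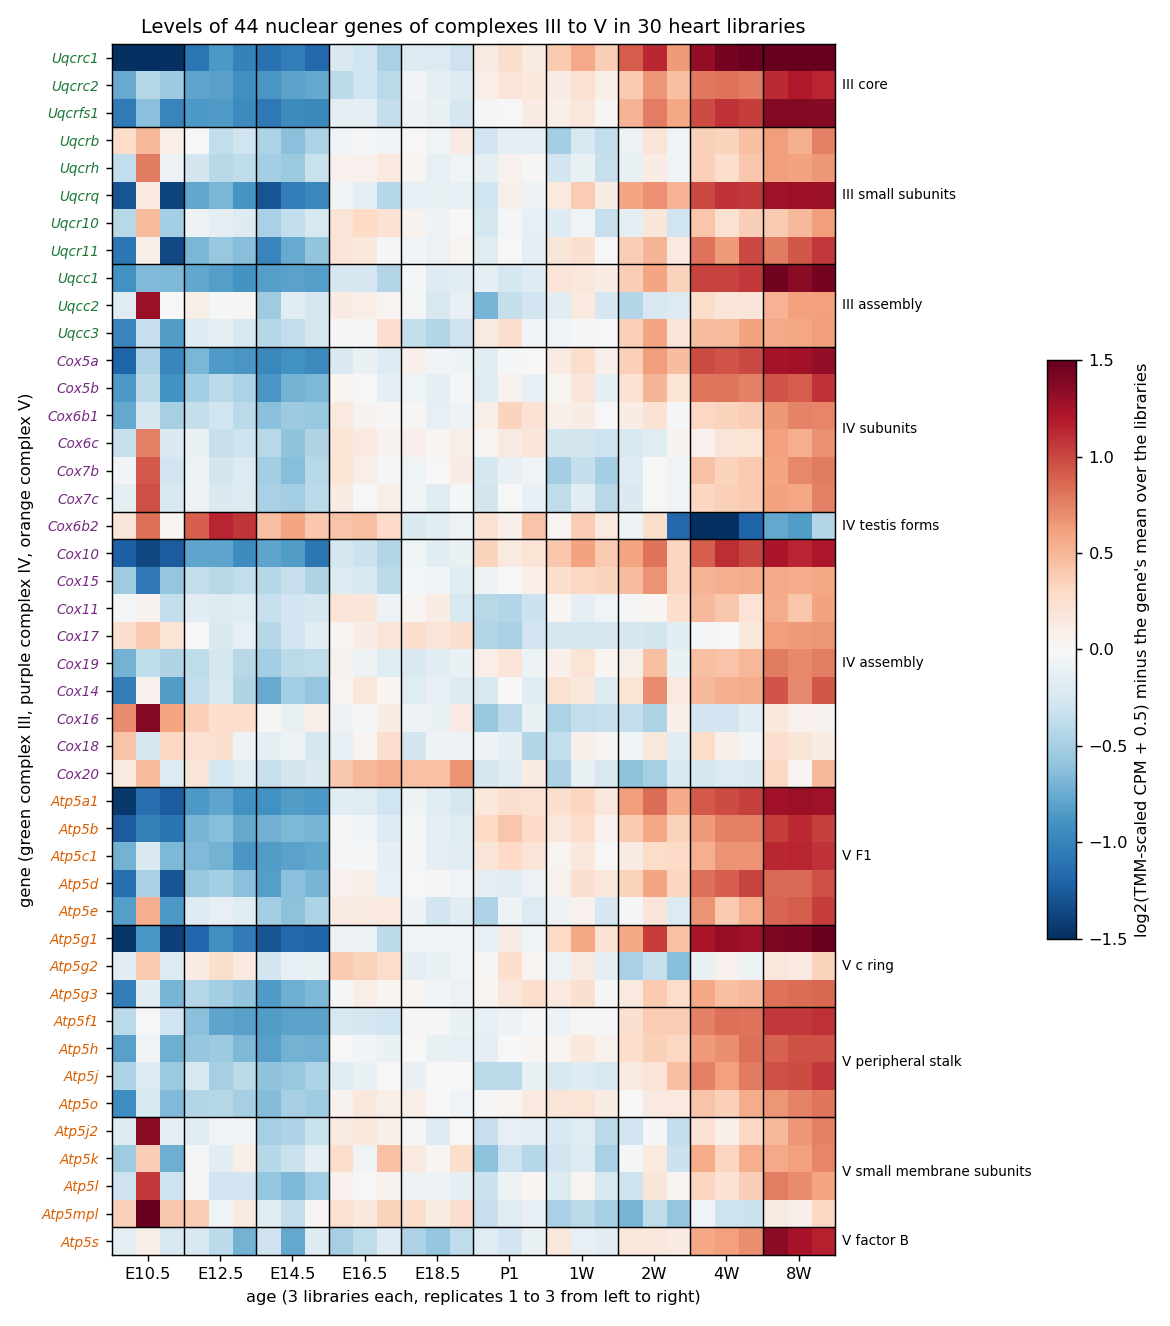
Log2(CPM + 0.5) of each gene tested (rows, grouped by role) in each of the 30 libraries (columns, by age), minus the gene's mean over the libraries. Blue is below and red above that mean. The columns from E10.5 to E14.5 are mostly blue and those of 8W mostly red, and replicate 2 of E10.5 is redder than its neighbours for small subunits such as Atp5j2 and Atp5mpl.

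The first comparison asked how the genes changed over the part of gestation sampled. From E10.5 to E18.5, more of the genes rose than fell. Of the 44 genes, 23 rose (32.9% of all genes did) and 6 fell (30.4% of all genes did), with a median log2 change of 0.37 against 0 over all genes. With library size alone, 19 rose and 14 fell (27.6% and 36.6% of all genes), and the medians were 0.22 and -0.16. All 3 core genes of complex III rose, as did 4 of the 5 genes of the F1 head and the 4 of the peripheral stalk, which holds the head still. So did 3 of 6 subunits of complex IV and 2 of 3 subunit c genes. Of the 5 small subunits of complex III, 1 rose and 1 fell. Of the 4 small membrane subunits of complex V, 0 rose and 2 fell. Of the assembly factors, 2 of 3 for complex III and 4 of 9 for complex IV rose, and 1 of each fell. Markers of several cell types moved over the same span. Of 9 cardiomyocyte markers, 8 rose and 1 fell (median 1.95), with sums of 23175 to 41348 CPM at E10.5 and 82449 to 90820 CPM at E18.5. Of 5 fibroblast markers, 4 rose and 0 fell (median 4.45), with sums of 263.7 to 307.4 CPM and 3079 to 3210 CPM, and all 5 macrophage markers rose (median 4.42). Of 7 erythroid markers, 1 rose and 4 fell. The part of these cells in the change of the respiratory genes was not tested.

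Uqcrc1 (ENSMUSG00000025651, chr9:108936633-108949623, + strand), a large matrix-side subunit of complex III, had 86.55, 122 and 94.54 CPM at E10.5 and 303.3, 300.2 and 278.6 CPM at E18.5. Every E18.5 library stood far above every E10.5 library, and the gene rose by 1.54 ± 0.11 (adjusted p = 6.2e-14), the largest rise of the group. Cox10 (ENSMUSG00000042148, chr11:63962627-64079468, - strand) had 16.57, 14.99 and 16.28 CPM at E10.5 and 37.45, 34.75 and 36.43 CPM at E18.5. The libraries of each age lay close together and apart from the other age, and Cox10 rose by 1.18 ± 0.1 (adjusted p = 2.9e-12). Atp5g1 (ENSMUSG00000006057, chr11:96068852-96075670, - strand), one of 3 genes for subunit c, had 130.6, 197.1 and 136.7 CPM at E10.5 and 345.3, 348.6 and 351.9 CPM at E18.5. It rose by 1.17 ± 0.13 (adjusted p = 7.7e-09), with no overlap.

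The falls rested largely on 1 library. Cox16 (ENSMUSG00000091803, chr12:81359026-81485127, - strand), which helps to assemble subunit 2 of complex IV, had 17.89, 28.86 and 16.43 CPM at E10.5 and 10.22, 9.999 and 11.8 CPM at E18.5. All E10.5 libraries were above all E18.5 libraries, and Cox16 fell by 0.98 ± 0.15 (adjusted p = 1.1e-06). Atp5mpl (ENSMUSG00000021290, chr12:111961375-111966977, - strand), a small proteolipid of the ATP synthase, had 89.1, 250.6 and 92.37 CPM at E10.5 and 83.44, 75.16 and 82.78 CPM at E18.5. It fell by 0.84 ± 0.25 (adjusted p = 0.0064), and replicate 2 of E10.5 stood far above the other 5 libraries.

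Uqcc2 (ENSMUSG00000024208, chr17:27122663-27133916, - strand), an assembly factor for cytochrome b, had 24.58, 69.26 and 28.04 CPM at E10.5 and 27.48, 23.55 and 25.77 CPM at E18.5. Here the groups overlapped, replicate 2 of E10.5 was again alone at the top, and the test gave -0.67 ± 0.24 (adjusted p = 0.019), or -0.60 without replicate 2 of E18.5 (adjusted p = 0.069). Without replicate 2 of E10.5, the log2 changes were -0.68 for Cox16 (adjusted p = 2.9e-05), -0.17 for Atp5mpl (adjusted p = 0.2) and -0.04 for Uqcc2 (adjusted p = 0.78). Atp5j2, subunit f of the ATP synthase, with 256.5, 753.6 and 268.4 CPM at E10.5, went from -0.60 to 0.10. In all, 29 genes rose and 2 fell without that library, Cox16 and Cox18, and leaving out replicate 2 of E18.5 also left 2 falls. Leaving out replicate 1 or replicate 3 of E10.5, which raises the weight of replicate 2, gave 10 falls each.

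The shorter span from E12.5 had few falls. From E12.5 to E18.5, 24 of the 44 genes rose (24.8% of all genes did) and 2 fell (25.1% of all genes did), with medians of 0.31 for the group and -0.02 over all genes. Scaled by library size alone, 16 rose and 5 fell (16.9% and 36.9% of all genes), and the medians were 0.1 and -0.23. Both comparisons share the E18.5 libraries. The largest rise was that of Atp5g1, 1.00 ± 0.13, followed by Cox5a, a matrix-side subunit of complex IV, with 0.79 ± 0.11. The complex III core genes rose by 0.75 ± 0.11 (Uqcrc1), 0.71 ± 0.08 (Uqcrc2) and 0.75 ± 0.09 (Uqcrfs1, the Rieske iron-sulfur protein). The 2 falls were Cox6b2, a testis form at 3.694 CPM at E12.5 and 1.332 CPM at E18.5 (-1.47 ± 0.31), and Atp5g2, another subunit c gene (-0.27 ± 0.11, adjusted p = 0.04). Atp5g2 lost its call without any 1 of 5 libraries, replicates 2 and 3 of E12.5 and each replicate of E18.5 (adjusted p = 0.06 to 0.15), which left 1 fall. Without replicate 2 of E10.5, which belongs to neither age compared but enters the shared fit, 3 genes fell. None of the 4 small membrane subunits of complex V (Atp5j2, Atp5k, Atp5l and Atp5mpl) passed the test, with log2 changes between 0.02 and 0.17. Over the same span, 8 of 9 cardiomyocyte markers rose and 1 fell (median 1.69), with sums of 25300 to 26081 CPM at E12.5 and 82449 to 90820 CPM at E18.5, and 0 of 7 erythroid markers rose and 7 fell. Their part in the change of the respiratory genes was not tested.

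**Figure D2:**
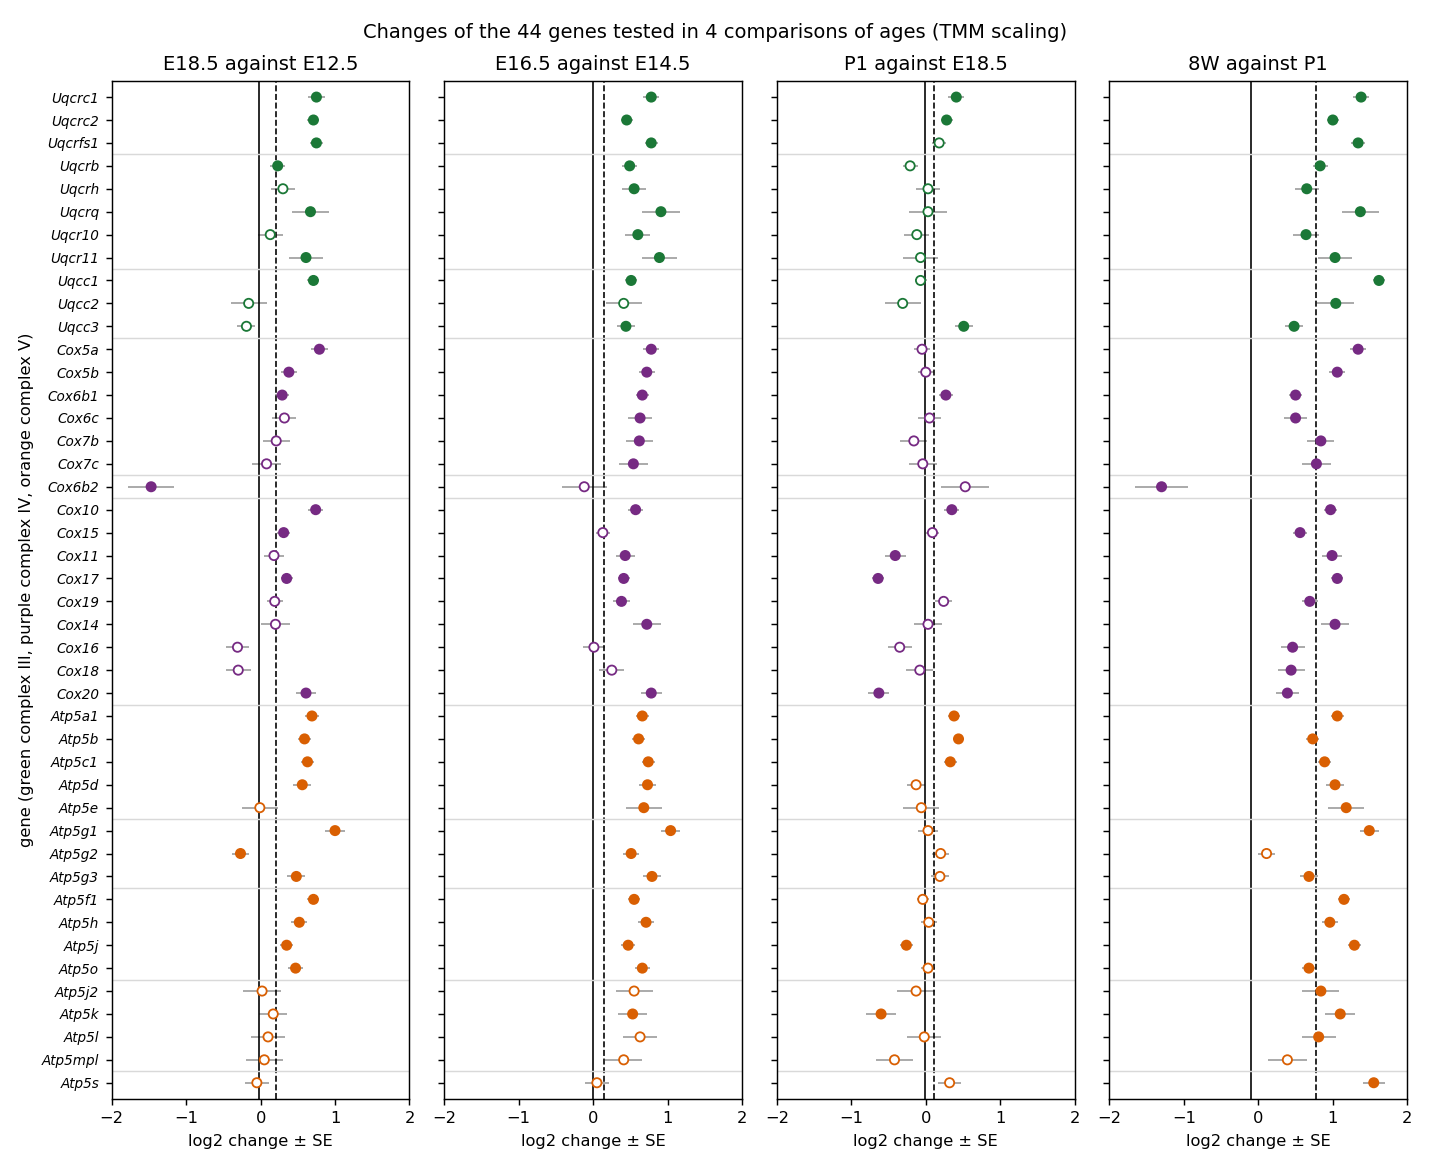
Log2 change ± SE of each gene tested in 4 comparisons of ages, with filled points where the edgeR test passed and open points elsewhere. The solid line is the median of all genes, and the dashed line is where a change of 0 with library size alone falls, as given by the shift of that median. In E16.5 against E14.5 nearly all points lie right of both lines, and in 8W against P1 the dashed line stands at about the middle of the points.

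Most of the group rose between E14.5 and E16.5. This step was compared after the values by age had been seen, so it describes when the rise took place and is no independent support for it. From E14.5 to E16.5, 35 of the 44 genes rose (14.1% of all genes did) and 0 fell (12.0% of all genes did), with medians of 0.59 and 0. With library size alone, 29 rose and 0 fell, where 7.82% of all genes rose and 20.8% fell. At an unadjusted p under 0.05 edgeR also had 0 genes of the group lower, and DESeq2 gave 36 rises and 0 falls. The rise covered 3 of 3 core and 5 of 5 small subunits of complex III, 6 of 6 subunits of complex IV, 5 of 5 genes of the F1 head, all 3 subunit c genes and 4 of 4 of the peripheral stalk. Of the assembly factors, 2 of 3 for complex III and 6 of 9 for complex IV rose. The genes that did not pass were Uqcc2, Cox6b2, Cox15, Cox16, Cox18, Atp5j2, Atp5l, Atp5mpl and Atp5s. Without replicate 2 of E10.5, which belongs to neither age compared but enters the shared fit, 39 genes rose in the edgeR test. These included Uqcc2 (0.41, adjusted p = 0.0023), Atp5j2 (0.55, adjusted p = 4.7e-06), Atp5l (0.63, adjusted p = 6.9e-06) and Atp5mpl (0.41, adjusted p = 0.0025). The count was 29 without replicate 1 of E16.5.

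Atp5g1 had the largest change of this step. It had 147.4, 159.4 and 156.6 CPM at E14.5 and 339.6, 338.9 and 275.1 CPM at E16.5. The lowest E16.5 library was well above the highest E14.5 library, and the gene rose by 1.04 ± 0.13 (adjusted p = 7.7e-07). Atp5b had 2102, 2182 and 2146 CPM at E14.5 and 3446, 3372 and 3019 CPM at E16.5. It rose by 0.61 ± 0.09 (adjusted p = 1.6e-06), again without overlap, and lay between 3075 and 3401 CPM at E18.5. Cox6b1 had 286.4, 301.9 and 297.7 CPM at E14.5 and 490.5, 457.6 and 447.7 CPM at E16.5, a rise of 0.66 ± 0.09 (adjusted p = 1.7e-06). Uqcrh had 181.6, 176.3 and 206.1 CPM at E14.5 and 271.2, 270.6 and 286.3 CPM at E16.5, a rise of 0.55 ± 0.16 (adjusted p = 0.013). The rise missed the threshold without replicate 2 of E14.5 (adjusted p = 0.054) and passed it without replicate 2 of E10.5 (0.55, adjusted p = 1e-06). For Cox6b1 and Uqcrh every E16.5 library was above every E14.5 library.

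Markers of other cells moved over the same step. Of 9 cardiomyocyte markers, 6 rose and 0 fell, and their summed level went from 41181 to 41665 CPM at E14.5 to 47328 to 50433 CPM at E16.5. Of 7 erythroid markers, 5 rose and 1, the embryonic globin Hbb-y, fell, and the sum went from 2049 to 3063 CPM to 5895 to 10992 CPM. The part of either in the rise of the respiratory genes was not tested. Complex I subunits, the first complex of the chain, rose in 31 of 36 cases with a median of 0.64.

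Across birth few of the genes changed, a share of the group no larger than that of all genes. From E18.5 to P1, 8 of the 44 genes rose (19.8% of all genes did) and 5 fell (19.0% of all genes did), and the medians were 0.01 and -0.01. By library size alone, 5 rose and 7 fell (13.4% and 24.5% of all genes). The rises were in large subunits (Uqcrc1, Uqcrc2, Atp5a1, Atp5b and Atp5c1, the gamma subunit of the central stalk), in Cox6b1 and in the assembly factors Uqcc3 and Cox10. The falls were in Cox11, Cox17 and Cox20, which help to put copper into complex IV or handle its subunit 2, in Atp5k and in Atp5j, coupling factor 6 of the peripheral stalk. The count of falls was 2 without replicate 1 of P1, and 3 without replicate 2 of P1, replicate 2 of E18.5 or replicate 3 of E18.5. It was 9 without replicate 2 of E10.5, which belongs to neither age compared but enters the shared fit. Of the cardiomyocyte markers, 5 rose and 1 fell over this step, with sums of 97039 to 114527 CPM at P1, and 4 of 5 macrophage markers rose, neither of which was tested as a part of the change.

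Uqcc3 (ENSMUSG00000071654, chr19:8880014-8880923, - strand), an assembly factor for cytochrome b, had 11.47, 10.76 and 11.85 CPM at E18.5 and 16.25, 17.72 and 14.42 CPM at P1. It rose by 0.51 ± 0.12 (adjusted p = 0.0015), and the 2 ages did not overlap. Atp5b had 3401, 3175 and 3075 CPM at E18.5 and 4260, 4640 and 4230 CPM at P1, a rise of 0.44 ± 0.08 (adjusted p = 8.5e-05). Uqcrc1 had 377.7, 414.8 and 376.3 CPM at P1, all above its E18.5 libraries given above, and rose by 0.41 ± 0.11 (adjusted p = 0.0029).

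Cox17 (ENSMUSG00000046516, chr16:38346991-38352763, + strand), the chaperone that hands copper to the assembly of complex IV, had 31.73, 30.69 and 31.81 CPM at E18.5 and 19.67, 19.02 and 21.81 CPM at P1. Each age was tight and the gap between them wide, and Cox17 fell by 0.64 ± 0.08 (adjusted p = 2.2e-07). Its level then lay between 22.03 and 23.91 CPM in the libraries of 1W and 2W. Cox20 (ENSMUSG00000026500, chr1:178319130-178322693, + strand) had 23.99, 23.94 and 28.36 CPM at E18.5 and 14.5, 15.67 and 19.08 CPM at P1, a fall of 0.63 ± 0.14 (adjusted p = 0.00074). All P1 libraries were below all E18.5 libraries. Atp5k (ENSMUSG00000050856, chr5:108433244-108434448, - strand) had 38.95, 36.03 and 42.59 CPM at E18.5 and 22.97, 28.52 and 26.27 CPM at P1. It fell by 0.60 ± 0.2 (adjusted p = 0.019) without overlap, but missed the threshold without replicate 1 of P1 (adjusted p = 0.083) or replicate 3 of E18.5 (adjusted p = 0.072). Without replicate 2 of E10.5, its log2 change was -0.60 (adjusted p = 0.00021).

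After birth nearly the whole group rose relative to other genes. From P1 to 8W, 41 of the 44 genes rose (31.8% of all genes did) and 1 fell (35.1% of all genes did), with medians of 0.93 and -0.1. The fall was Cox6b2, from 1.922 to 0.7778 CPM, and Atp5g2 (0.11) and Atp5mpl (0.39) did not pass. The count depends on the scaling, and the share of mitochondrially encoded RNA went from 5.28% to 6.93% at P1 to 18.9% to 19.2% at 8W. With library size alone, 14 rose (11.5% of all genes did) and 5 fell (65.2% of all genes did), and the medians were 0.16 and -0.88. The 46 genes held 1.52% to 1.67% of the counts at P1 and 1.75% to 1.78% at 8W. The group's median stood about 1 log2 unit above that of all genes. A change of scaling moves all genes nearly alike, so this gap is the same with either scaling by construction and is no separate support.

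The 14 genes that rose under both scalings were the 3 core genes of complex III with Uqcrq and Uqcc1, Cox5a, Cox5b and Cox17 of complex IV, and Atp5a1, Atp5d, Atp5f1, Atp5g1, Atp5j and Atp5s of complex V. Uqcc1 (ENSMUSG00000005882, chr2:155846894-155930310, - strand), an assembly factor for cytochrome b, had 73.62, 66.8 and 70.31 CPM at P1 and 220.7, 207 and 219 CPM at 8W. No P1 library came near an 8W library, and the rise of 1.62 ± 0.08 (adjusted p = 2.4e-18) was the largest of the group. Atp5s (ENSMUSG00000054894, chr12:69724950-69744660, + strand), coupling factor B, had 4.548, 4.2 and 4.786 CPM at P1 and 14.15, 13 and 12.4 CPM at 8W, a rise of 1.55 ± 0.15 (adjusted p = 1.9e-10). Atp5g1 had 330.7, 388.6 and 346.4 CPM at P1 and 959.5, 966.1 and 1060 CPM at 8W, a rise of 1.49 ± 0.13 (adjusted p = 6.4e-11). For both genes the lowest 8W library was far above the highest P1 library.

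For some of the most abundant genes the rise from P1 to 8W was not seen with library size alone. Atp5b had 7126, 7542 and 7070 CPM at 8W, and its change from P1 was 0.73 ± 0.09 (adjusted p = 5.6e-09), or -0.05 with library size alone (adjusted p = 0.62). Cox6b1 had 469.8, 554.5 and 513.1 CPM at P1 and 694, 741.5 and 733.2 CPM at 8W, a change of 0.50 ± 0.09 with TMM and -0.28 with library size alone (adjusted p = 0.0033). Uqcrh had 234.1, 270 and 261.2 CPM at P1 and 400.1, 393.4 and 405.6 CPM at 8W, 0.65 ± 0.16 with TMM and -0.13 with library size alone (adjusted p = 0.39). Their TMM-scaled libraries did not overlap between the 2 ages, and for these 3 genes the sign of the change depends on the scaling.

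More genes rose from 2W to 8W than from P1 to 2W, a difference that was not tested. From P1 to 2W, 17 genes rose (23.8% of all genes did) and 1, Atp5g2, fell by 0.60 ± 0.11 (23.5% of all genes fell), with medians of 0.24 and -0.03. Scaled by library size alone, 4 rose and 16 fell (10.4% and 47.1% of all genes). With TMM, the count of rises was 23 without replicate 2 of E10.5 and 14 without replicate 1 of P1. The count of falls was 4 without replicate 2 of E10.5, and 2 without any 1 of replicate 3 of E10.5, replicates 1 and 2 of E12.5, replicate 1 of P1 and replicates 2 and 3 of 2W. From 2W to 8W, 39 genes rose (25.8% of all genes did) and 0 fell (25.1% of all genes did), with medians of 0.66 and -0.02, or 25 rises and 2 falls with library size alone (9.51% and 43.7% of all genes). Without replicate 3 of 2W, 1 gene fell. The rises of this later step numbered 40 without replicate 2 of E10.5 and 34 without replicate 1 of 2W. These 2 comparisons share the 2W libraries. At an unadjusted p under 0.05 edgeR had 0 genes lower over the later step, and DESeq2 also gave 0 falls. The lowest change was that of Cox6b2 (-0.70 ± 0.37, adjusted p = 0.12). Over this later step, 7 of 9 cardiomyocyte and 5 of 5 macrophage markers rose and 0 fell, while 5 of 5 endothelial and 4 of 5 fibroblast markers fell and 0 rose.

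Markers of other cells changed from P1 to 8W too. Of 9 cardiomyocyte markers, 8 rose and 0 fell (median 0.99), or 4 and 2 with library size alone (median 0.21), and their sum went from 97039 to 114527 CPM at P1 to 218492 to 237899 CPM at 8W. The 5 macrophage markers all rose (median 1.3), from 81.93 to 113.2 CPM to 238.2 to 263.4 CPM in sum. Of 7 erythroid markers, 0 rose and 6 fell, and of 5 endothelial markers, 1 rose and 4 fell. Of 5 fibroblast markers, 2 rose and 2 fell, and of 5 liver markers, 0 rose and 3 fell. Their part in the change of the respiratory genes was not tested.

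Subunit c of the ATP synthase is made from 3 genes, Atp5g1, Atp5g2 (ENSMUSG00000062683, chr15:102662864-102672352, - strand) and Atp5g3 (ENSMUSG00000018770, chr2:73908447-73911326, - strand), whose proteins differ in the import sequence that is cut off and share the mature subunit. The last 75 codons with the stop codon, 228 bases, are shown from the GENCODE M21 transcripts, since reads from like stretches could be shared out between the genes. Capitals mark the bases that differ from Atp5g1.
Atp5g1 coding end: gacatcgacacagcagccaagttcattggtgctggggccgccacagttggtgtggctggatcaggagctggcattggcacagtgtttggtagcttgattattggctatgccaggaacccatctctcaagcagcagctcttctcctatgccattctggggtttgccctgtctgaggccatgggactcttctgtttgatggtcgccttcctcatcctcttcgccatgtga
Atp5g2 coding end: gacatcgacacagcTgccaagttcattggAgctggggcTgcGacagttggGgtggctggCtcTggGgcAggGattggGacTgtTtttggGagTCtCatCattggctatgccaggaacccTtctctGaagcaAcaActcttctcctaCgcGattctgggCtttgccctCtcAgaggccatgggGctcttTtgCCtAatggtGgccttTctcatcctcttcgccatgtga
Atp5g3 coding end: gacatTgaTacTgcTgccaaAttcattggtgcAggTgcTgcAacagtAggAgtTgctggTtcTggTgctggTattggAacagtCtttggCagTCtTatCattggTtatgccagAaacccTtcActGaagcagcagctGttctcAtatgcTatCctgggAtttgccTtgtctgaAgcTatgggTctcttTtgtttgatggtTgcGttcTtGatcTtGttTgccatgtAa

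Atp5g2 differs from Atp5g1 at 34 of these bases (85.1% identity), 32 of them at the third base of a codon, and the longest identical run is 21 bases. Atp5g3 differs at 46 (79.8% identity), 41 of them at the third base, with a longest run of 11. Atp5g2 had values that were not whole numbers in all 30 libraries, Atp5g1 in 8 and Atp5g3 in 0.

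The make-up of the subunit c transcripts turned over with age. Of the counts of the 3 genes, Atp5g1 held 38.6%, 36% and 36.7% in the E10.5 libraries and 50.4%, 51.3% and 52% in those of E18.5. In the P1 libraries it held 48.6%, 49.7% and 46.7%, and in those of 8W 63.8%, 63.8% and 65%. Every library of E18.5 or later was above every library of E10.5 to E14.5. A share within a library does not depend on the scaling between libraries, and a permutation test of the 10 ages gave p = 1e-05, the smallest that 100000 resamples allow. The mean share was 37.1% ± 1.32 (SD, n = 3) at E10.5, 39.9% ± 0.81 at E14.5, 45.6% ± 2.62 at E16.5, 56.1% ± 1.3 at 1W and 66.2% ± 1.18 at 4W. That of Atp5g2 went from 24.2% ± 1.68 at E10.5 to 13.6% ± 0.488 at E18.5 and 7.4% ± 0.262 at 8W, and that of Atp5g3 from 38.7% ± 2.92 to 35.2% ± 1.26 and 28.4% ± 0.927.

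**Figure D3:**
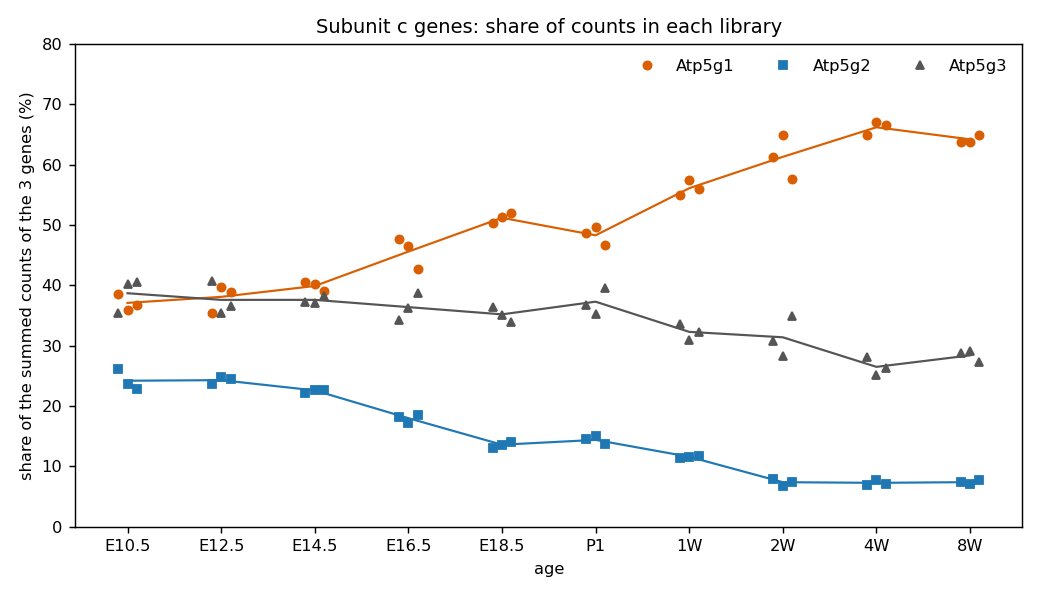
Share of the summed counts of Atp5g1, Atp5g2 and Atp5g3 in percent (vertical axis) in each library (points) by age, with lines through the means of 3 libraries. The Atp5g1 points climb from 36% to 38.6% at E10.5 to 63.8% to 65% at 8W, while those of Atp5g2 fall from 22.8% to 26.1% to 7.16% to 7.68%.

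In CPM, the 3 genes took different courses. Atp5g2 had 88.26, 129.1 and 85.14 CPM at E10.5, 129.4, 125.2 and 119.5 CPM at E16.5, 70.03, 77.28 and 63.22 CPM at 2W, and 110.6, 108.4 and 125.2 CPM at 8W. Its 2W libraries were below all libraries of E10.5, E16.5 and 8W. Atp5g3 had 119.7, 220.6 and 150.9 CPM at E10.5, 250.2, 238.9 and 230.3 CPM at E18.5, 250.6, 276.3 and 294 CPM at P1, and 433, 440.4 and 446 CPM at 8W. It rose by 0.55 ± 0.12 from E10.5 to E18.5 and by 0.68 ± 0.12 from P1 to 8W, the latter being -0.09 with library size alone. Which of the 3 genes had the highest level per length cannot be told from these files, because principal transcripts of Atp5g1 run from 596 to 4715 bases. With the shortest transcripts Atp5g1 held 36.3% per kb at E10.5 and 65.6% at 8W, and with the longest 8.33% and 21.6%, so its share was higher at 8W with either. That of Atp5g3 depends on the length used, going from 31.7% to 24.2% per kb with the shortest transcripts and from 56.6% to 62.3% with the longest.

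After birth, the mitochondrially encoded partners of these genes had larger log2 changes than the nuclear genes. Mitochondrial DNA encodes cytochrome b of complex III (mt-Cytb), subunits 1 to 3 of complex IV (mt-Co1, mt-Co2 and mt-Co3) and 2 subunits of complex V (mt-Atp6 and mt-Atp8). From P1 to 8W all 6 rose with either scaling, with a median of 2.41 with TMM. They rose by 3.02 ± 0.13 (mt-Cytb), 2.35 ± 0.09 (mt-Co1), 2.47 ± 0.39 (mt-Co2), 2.25 ± 0.38 (mt-Co3), 2.95 ± 0.6 (mt-Atp6) and 2.24 ± 0.39 (mt-Atp8). Their levels differed widely. At P1, the nuclear counts of complex V were 163 ± 107 times (SD, n = 3) those of mt-Atp6 and mt-Atp8, with libraries from 68.2 to 278. For complexes III and IV the same ratio was 1.59 ± 0.246 and 0.0641 ± 0.00718. The counts of mt-Atp6 and mt-Atp8 were thus small beside those of the nuclear genes of complex V, and this ratio varied widely between the P1 libraries. From E18.5 to P1, mt-Co1 rose by 0.90 ± 0.09 and mt-Cytb by 0.34 ± 0.12, and the other 4 did not pass.

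The summed counts of the 46 nuclear genes over those of the 6 mitochondrial genes were 1.25, 1.15 and 1.12 at E16.5, 0.56, 0.658 and 0.544 at P1, 0.43, 0.45 and 0.395 at 1W, and 0.205, 0.213 and 0.213 at 8W. The mean ratio was highest at E16.5, with libraries that overlap those of E12.5, and it was lower in every library of 1W and later than in any earlier library. The mean was 0.654 ± 0.0691 (SD, n = 3) at E10.5, 1.08 ± 0.112 at E12.5 and 0.897 ± 0.0884 at E18.5. After 1W it stayed low, with a mean of 0.219 ± 0.0264 in the 2W libraries and 0.204 ± 0.00307 in those of 4W. From P1 to 8W it dropped by 1.48 on the log2 scale. The ratio lies within a library and so does not depend on scaling between libraries, but it is mostly one of mt-Co1, which had 121946 CPM at 8W, and the part of poly(A) selection in it was not tested. It counts RNA and says nothing of protein.

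**Figure D4:**
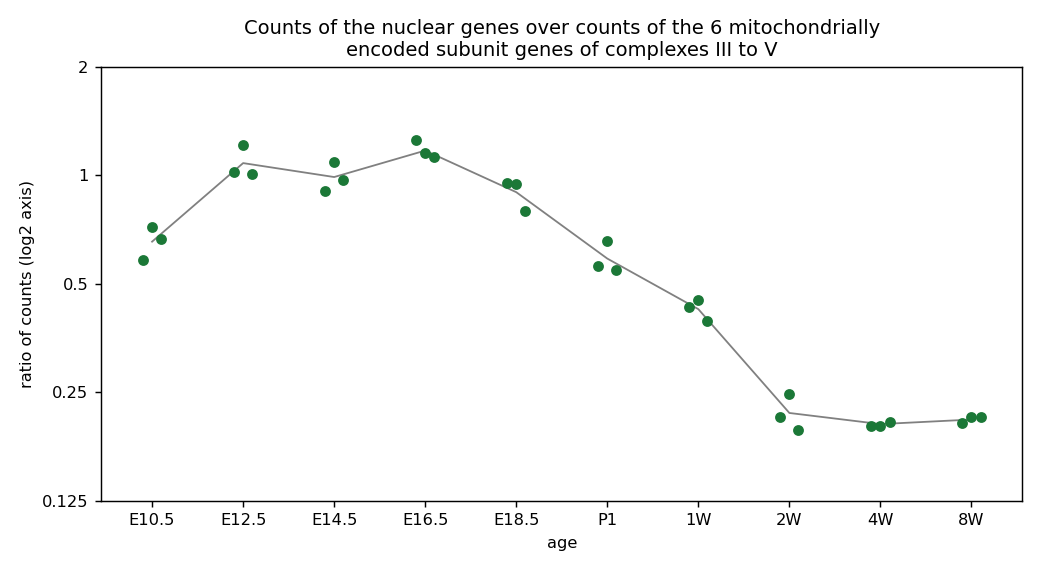
Summed counts of the 46 nuclear genes divided by those of the 6 mitochondrially encoded subunit genes of complexes III to V (vertical log2 axis) in each library (points) by age, with a line through the means. The ratio lies between 1.12 and 1.25 at E16.5 and between 0.205 and 0.213 at 8W.

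Over gestation, genes with longer coding sequences tended to have higher log2 changes. Over the 44 genes, Spearman's rho between coding length and log2 change was 0.46 for E18.5 against E12.5 and 0.5 for E18.5 against E10.5, or 0.25 for the latter without replicate 2 of E10.5. It was 0.42 for P1 against E18.5, 0.17 for 8W against P1 and 0 for E16.5 against E14.5. Over 15212 protein-coding genes, the same comparisons gave 0.14, 0.16, 0.01, -0.05 and -0.23. Within the weeks after birth, rho over the 44 genes was 0.35 for 2W against P1 and -0.11 for 8W against 2W. The protein-coding genes gave 0.08 and -0.15 there. These are descriptions across genes, which are not independent replicates, and the points share their libraries. Among the longest are large subunits (Atp5a1, Atp5b, Uqcrc1 and Uqcrc2) and also assembly factors (Cox10, Cox15 and Cox18), of which Cox18 had a log2 change below 0 in both comparisons with E18.5.

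**Figure D5:**
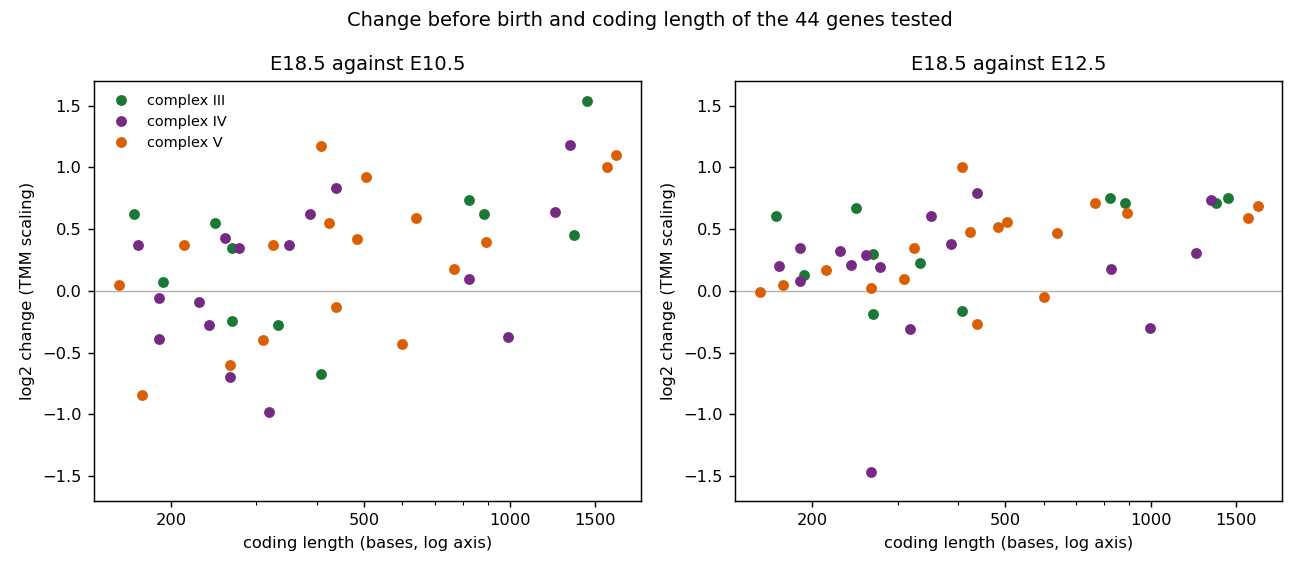
Log2 change (vertical axis) against coding length in bases (horizontal log axis) for the 44 genes tested, coloured by complex, for E18.5 against E10.5 and E18.5 against E12.5. The longest 6 genes lie above 0 in both plots, and short genes spread below 0 mainly against E10.5, the age with the library that stands apart.

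Cox6b2, Cox7b2 and Cox8c, forms of complex IV subunits known from testis, were low or not detected. Cox6b2 was the highest of them, with 3.304 to 3.993 CPM at E12.5 and 0.0722 to 0.3874 CPM at 4W. Cox7b2 had 9 counts in all 30 libraries and Cox8c 0, where a count of 0 allows up to 3 counts. Testis forms of other metabolic genes (Cyct, Ldhc and Pgk2) summed to at most 0.2902 CPM.

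Other genes of the pathway moved in the same comparisons. From P1 to 8W, 35 of 36 complex I subunits rose and 0 fell (median 1.13), led by Ndufs7 (1.87 ± 0.1) and Ndufb3 (1.53 ± 0.11). All 4 complex II subunits rose (median 1.21), as did Cycs (1.43 ± 0.12), cytochrome c, and Cyc1 (1.17 ± 0.13), the cytochrome c1 of complex III. Of 9 cytochrome c oxidase genes with tissue forms, 5 rose and 2 fell, with the largest rises in the muscle forms Cox7a1 (2.84 ± 0.24) and Cox8b (1.99 ± 0.15). Of 21 further assembly factors tested, 18 rose and 0 fell, with the largest rises in Bcs1l (1.82 ± 0.13), which inserts the Rieske protein, and Taco1 (1.68 ± 0.13), a translational activator of mt-Co1. By library size alone, 27 complex I subunits rose and 1 fell, 3 complex II subunits rose and 1 fell, 3 of the genes with tissue forms rose and 4 fell, and 8 of these assembly factors rose and 2 fell. Of all genes, 31.8% rose and 35.1% fell with TMM, and 11.5% rose and 65.2% fell with library size alone.

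Across birth, 8 of the 21 further assembly factors fell and 1 rose (median -0.26), with the largest falls in Cmc2 (-0.87 ± 0.12), Higd1a (-0.72 ± 0.13) and Bcs1l (-0.72 ± 0.13). Cycs fell by 0.64 ± 0.12 over the same step, and 2 of 36 complex I subunits fell and 6 rose. Of all genes, 19.0% fell and 19.8% rose. By library size alone, 11 of the further assembly factors fell and 0 rose, and 9 complex I subunits fell and 3 rose. With that scaling 24.5% of all genes fell and 13.4% rose, so the falls of complex I were near the share of all genes. The balance for complex I depends on the scaling.

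Regulators of respiratory genes followed separate courses. From P1 to 8W, 7 of 8 rose and 1 fell (31.8% and 35.1% of all genes did). Esrra rose by 1.21 ± 0.1, Esrrg by 0.93 ± 0.09, Ppargc1a by 0.93 ± 0.11, Tfam by 0.53 ± 0.08, Yy1 by 0.36 ± 0.08, Ppargc1b by 0.29 ± 0.1 and Gabpa by 0.24 ± 0.09, and Nrf1 fell (-0.58 ± 0.1). By library size alone, 1 rose and 5 fell (11.5% and 65.2% of all genes). From E10.5 to E18.5, 3 rose and 5 fell with either scaling, with a median of -0.35 with TMM. Of all genes, 32.9% rose and 30.4% fell over that span with TMM. From E12.5 to E18.5, Ppargc1b rose by 1.8 ± 0.1, Ppargc1a by 1.40 ± 0.11, Esrra by 0.69 ± 0.1 and Gabpa by 0.33 ± 0.09, and Nrf1 fell (-0.36 ± 0.09). From E14.5 to E16.5, Esrra rose by 0.83 ± 0.1, Ppargc1b by 0.40 ± 0.1 and Ppargc1a by 0.37 ± 0.11, and Esrrg fell (-0.65 ± 0.09). From E18.5 to P1, Esrra, Ppargc1a and Ppargc1b rose by 0.32, 0.29 and 0.26, and Yy1 and Tfam fell by 0.30 and 0.29. Library size alone gave 3 rises and 2 falls from E12.5 to E18.5 (16.9% and 36.9% of all genes). It gave 1 rise and 4 falls from E14.5 to E16.5 (7.82% and 20.8% of all genes). From E18.5 to P1 it gave 0 rises and 2 falls (13.4% and 24.5% of all genes), with a share of falls near that of all genes. Most of the rises across E14.5 to P1 thus depend on the scaling. PGC-1 proteins (Ppargc1a and Ppargc1b) are coactivators of the ERR receptors (Esrra and Esrrg), NRF1 and GABP, the factors whose motifs were searched above. RNA levels of these factors do not show their binding, which was not measured.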

How the data were processed

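RNA-seq was analysed for 30 heart libraries, 3 at each of 10 ages. Per the submitters' processing notes, reads were trimmed with fastp 0.18.0 and aligned with STAR 2.5.3a, with GRCm38 (mm10) named as the build. Which tool counted the reads, with which annotation and strandedness, is not given in the sources used here. The values the authors deposited are expected counts per gene, 6.94% of them not whole (tolerance 1e-06), and were rounded. Symbols and positions came from GENCODE M21. Genes were kept by edgeR's filterByExpr (19280 of 48820), scaled by TMM and fitted over all 10 ages with 20 residual degrees of freedom (edgeR 4.0.16, R 4.3.3). Quasi-likelihood F tests were adjusted by Benjamini-Hochberg over all genes kept, with a threshold of 0.05. The fit was also run on simulated data in which few genes changed, so that run cannot speak to the choice of scaling. Shares and ratios came from the rounded counts in Python 3.11.15, with a permutation test of the subunit c shares over samples.

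The members, gene lists and tests were chosen with earlier results of these data known. Values in every library are given for the 3 genes called with the largest rise and the 3 with the largest fall from E10.5 to E18.5, from E18.5 to P1 and from P1 to 8W (at least 5 CPM in the higher group), for the subunit c genes and for the highest gene per length of each complex. The comparison of E16.5 with E14.5 was added after the data were seen. Transcript lengths are those of the shortest principal transcript. Alternatives were other scalings and filters, mitochondrial and globin genes left out, a replicate block, DESeq2 1.42.0, only the 2 ages compared and each library left out.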

Additional observations from a re-analysis of the deposited data

How the results depend on the processing

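With library size alone, genes lower were 14 for E18.5 against E10.5 and 5 for E18.5 against E12.5, P1 against E18.5 had 5 higher, 8W against P1 had 14 higher and 5 lower, 2W against P1 had 4 and 16, 8W against 2W had 25 and 2, and 18 genes peaked at P1 or later, not 38. With the samples of the 2 ages alone, genes lower were 1 for E18.5 against E10.5, 8 for P1 against E18.5 and 2 for 2W against P1. Genes lower were also 2 for 2W against P1 with upper quartile factors and with the stricter filter, and 1 for E18.5 against E12.5 with RLE size factors and with DESeq2. The cause was not tested.

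Single genes were checked in a comparison only where they were called with TMM, and the subunit c genes in every comparison, so the lists here are not complete. The median change of all genes of the group from P1 to 2W was 0.24 with TMM and -0.16 with library size alone. Among the genes checked, the sign changed with library size alone from P1 to 2W for Atp5g3 (-0.27), Atp5h (-0.05), Cox10 (-0.03) and Uqcrc2 (-0.04), and from E18.5 to P1 for Atp5g1 (-0.09). From P1 to 8W the sign changed, again among the genes checked, for Atp5b (-0.05), Atp5g2 (-0.66), Atp5g3 (-0.09), Atp5o (-0.09), Cox15 (-0.21), Cox16 (-0.31), Cox18 (-0.33), Cox19 (-0.08), Cox20 (-0.38), Cox6b1 (-0.28), Cox6c (-0.28), Uqcc3 (-0.29), Uqcr10 (-0.13) and Uqcrh (-0.13). It also changed for Atp5g2 there with upper quartile factors (-0.08). With 1 library left out, the change from E10.5 to E18.5 lay between -0.23 and 0.09 for Atp5g2 and between -0.86 and 0.10 for Atp5j2, with a value above 0 for each only without replicate 2 of E10.5. That of Atp5g1 from E18.5 to P1 lay between -0.04 (without replicate 2 of P1) and 0.08. Of 1872 values of single genes under the alternatives, 1750 kept their direction and side of the threshold.

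With each library left out, genes called across the ages were 43 to 44. Genes higher and lower were 18 to 29 and 2 to 10 for E18.5 against E10.5, 21 to 27 and 1 to 3 for E18.5 against E12.5, 7 to 10 and 2 to 9 for P1 against E18.5, 39 to 42 and 1 to 1 for 8W against P1, 14 to 23 and 1 to 4 for 2W against P1, 34 to 40 and 0 to 1 for 8W against 2W, and 29 to 39 and 0 to 0 for E16.5 against E14.5. The Atp5g1 share rose by 26.6 to 27.8 points, the log2 ratio of nuclear to mitochondrial counts changed by -1.53 to -1.39 from P1 to 8W, and 37 to 39 genes peaked at P1 or later.

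Same-numbered libraries did not deviate together: in 0 of 45 pairs of ages were all 3 correlations over 0.1. With the replicate number as a block, 25 genes rose and 5 fell from E10.5 to E18.5, 41 and 1 from P1 to 8W, and 34 and 0 from E14.5 to E16.5.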
